A study of Mus musculus with 20 samples.

Results

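Cholesterol synthesis, uptake and efflux were followed here over 29 genes, of 45706 genes in the count files, in mouse mammary tumors and tumor cells that lacked or kept the lysosomal protease cathepsin D (gene Ctsd). The genes were taken as a named list, by symbol, with earlier results of these data known. They comprise 18 enzymes of sterol synthesis, 4 genes of sterol sensing and transcription (Srebf2, Scap, Insig1 and Insig2), and 7 genes of sterol transport, efflux, storage and of the liver X receptors (LXRs) (Stard4, Abca1, Abcg1, Nr1h2, Nr1h3, Mylip and Soat1). All 29 were found in the files and passed the filter on low counts in both tumors and cells. RNA was sequenced in 6 groups of PyMT mice or their cells, in which the polyoma middle T oncogene, driven by the mammary MMTV promoter, gives rise to breast tumors. Tumors of 18-week-old mice were labeled WT (wild type, 4 mice) or were MMTV-cre;Ctsd-/- (4 mice). The study calls the WT tumors controls, a term it uses for mice with untargeted or floxed Ctsd alleles. Immortalized tumor cells were WT or Ctsd-/- and were kept for 10 days (called 1% FCS) or for 12 weeks (called 1% FCS LT) in starvation medium with 1% fetal calf serum, with 3 samples in each of the 4 groups. Cells in full serum were not analysed here, so that the cell comparisons address genotype and time in low serum but not low serum itself.

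Several features limit these groups as models. The Cre in the mice acts in the mammary epithelium, so that other cells of a Ctsd-/- tumor can keep Ctsd. The study describes a single cell line of each genotype. Genotype and cell line therefore cannot be told apart, and p-values in cells measure the spread between cultures of the same line. In tumors, fewer cells of a type and less RNA per cell cannot be told apart.

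Cells make cholesterol from acetyl-CoA through the mevalonate pathway, which leads to farnesyl pyrophosphate, and then through squalene and lanosterol to the late sterols. When sterols in the endoplasmic reticulum are low, Scap escorts the transcription factor Srebf2 (SREBP2) to the Golgi, where its active part is cut free and raises the transcription of the synthesis enzymes and of uptake genes, while the Insig proteins hold Scap back when sterols are plentiful. Oxysterols activate the LXRs Nr1h2 and Nr1h3, which raise the exporters Abca1 and Abcg1 and the ubiquitin ligase Mylip, which marks lipoprotein receptors for degradation. Cholesterol taken up in lipoproteins reaches the cell through the lysosome.

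Promoter sequences show which of these genes carry letters known from sterol control near their start. RefSeq promoter windows of GRCm38.p6 (250 bases before and 50 after each start) were present for 24 of the 29 genes. A pair of motifs was searched as exact letters on both strands. Sites with other letters, sites outside the window and genes without a window were not covered. The sterol regulatory element TCACNCCAC was found in the window of 1 of the 24 (Hmgcs1), against 1.44% of all 27025 genes with a window. The letters CCAAT, which the factor NF-Y binds, were found in 19 of the 24 (79.2%) and in 14 of the 15 enzymes with a window (93.3%, all but Acat2), against 41.1% of all genes. The stretches below are shown because they hold the sterol element of Hmgcs1 and the CCAAT letters of 5 genes that were higher and 1 gene (Ebp) that was lower in Ctsd-/- cells at 12 weeks. They run 5′ to 3′ in the direction of the gene and lie upstream of its start, and capitals mark the motif, with ATTGG being CCAAT on the other strand (a further match inside a stretch is left in lower case).
Hmgcs1, chr13:119690189-119690247 (+ strand), 137 bases upstream: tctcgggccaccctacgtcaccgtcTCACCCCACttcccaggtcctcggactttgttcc
Mvk, chr5:114444177-114444231 (+ strand), 67 bases upstream: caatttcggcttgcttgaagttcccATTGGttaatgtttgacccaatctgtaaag
Mvd, chr8:122443453-122443507 (− strand), 60 bases upstream: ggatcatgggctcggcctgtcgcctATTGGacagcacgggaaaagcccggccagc
Lss, chr10:76531518-76531572 (+ strand), 62 bases upstream: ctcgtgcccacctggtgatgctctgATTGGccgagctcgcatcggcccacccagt
Nsdhl, chrX:72918387-72918441 (+ strand), 109 bases upstream: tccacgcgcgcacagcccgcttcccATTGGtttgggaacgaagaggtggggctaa
Insig1, chr5:28071171-28071225 (+ strand), 216 bases upstream: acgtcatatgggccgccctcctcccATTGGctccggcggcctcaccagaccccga
Ebp, chrX:8193538-8193592 (− strand), 55 bases upstream: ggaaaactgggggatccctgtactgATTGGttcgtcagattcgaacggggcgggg
The Ebp stretch thus holds the same 5 letters as the stretches of the 5 genes that moved the other way. A match describes letters and no binding was measured.

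The depth of the libraries was 49725437 to 64291587 counts on genes in tumors and 33622831 to 40239762 in cells. Ctsd was measured first. WT tumors had 1860, 2617, 1781 and 2532 CPM (counts scaled to library size and composition) and Ctsd-/- tumors 797, 360.2, 1295 and 1233 CPM, a log2 FC of −1.25 (SE 0.38, unadjusted p = 0.00776, adjusted p = 0.463), with no overlap between the genotypes. In cells Ctsd showed a log2 FC of −4.16 (SE 0.37, adjusted p = 4.34e-06) in 1% FCS and a log2 FC of −3.74 (SE 0.36, adjusted p = 1.24e-05) in 1% FCS LT, again with no overlap. Marker genes showed that the WT cells in 1% FCS stood apart from the other 9 cell samples. The summed CPM of 7 epithelial markers was 957.9 to 1795 in these 3 samples and 4966 to 10890 in the other cells, and that of 6 fibroblast markers was 1177 to 3307 against 2.57 to 99.6, with Lum at 3 counts or fewer. The comparison of genotypes at 12 weeks does not use the means of these samples, whereas that at 10 days, the time comparison in WT cells and the test of whether the genotype difference changed with time do. White adipocyte markers were at 3 counts or fewer for at least 6 of 7 genes in every cell group, and their sum was 532.5 to 5685 CPM in WT tumors and 3396 to 23480 CPM in Ctsd-/- tumors.

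Tumors and cells differed in the level of most synthesis genes. Every one of the 12 cell samples lay above every one of the 8 tumors for 13 of the 18 enzymes, for 3 of the 4 sensing genes and for Stard4, which carries sterols between membranes in the cytosol. In all this was 17 of the 29 genes (58.6%), against 24.1% of the 14380 genes tested in both. Srebf2 had a median of 587.7 CPM over the cells and 60.1 CPM over the tumors. Hmgcs1, which makes HMG-CoA, had medians of 384.3 and 61.9 CPM, and Stard4 had medians of 135.8 and 15.3 CPM. The opposite order, every tumor above every cell sample, was found for Pmvk, Abcg1, Nr1h3 and Mylip (13.8%, against 21.6% of all genes tested in both). Abcg1 had a median of 65.9 CPM in tumors and 2.08 CPM in cells, and Nr1h3 one of 26.1 and 0.452 CPM. The tumors hold macrophages, with a marker sum of 788.2 to 1969 CPM over 8 genes against at most 63.7 CPM in cells, and adipocytes as given above. The part of these cell types in the levels of the genes was not tested. No test was made between the materials, whose reads were counted differently with regard to strand.

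**Figure D1:**
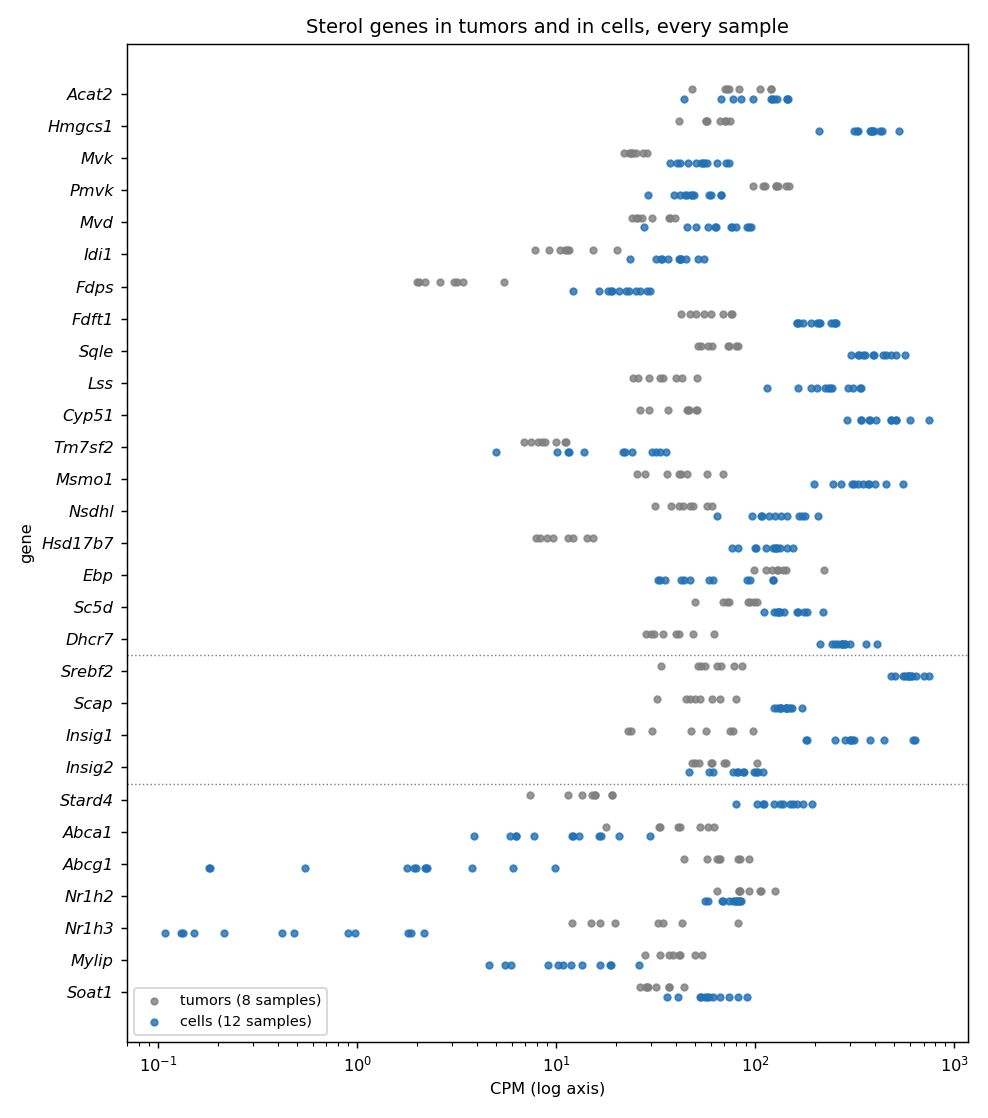
Level of each of the 29 genes in CPM (log axis) in the 8 tumors (grey) and the 12 cell samples (blue), each point 1 sample. Dotted lines divide synthesis enzymes (top), sensing genes and transport, efflux, storage and LXR genes (bottom), and the blue points lie right of all grey ones for 17 genes and left of all of them for 4.

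Corrected for exon length, the order of the genes also differed between the materials. Pmvk and Ebp led the 29 genes in WT tumors with means of 72.1 and 67.5 CPM per kb, and in Ctsd-/- tumors with 72.8 and 51.0 CPM per kb. Hmgcs1 led in WT cells in 1% FCS (97.0 CPM per kb) and Cyp51 in WT cells in 1% FCS LT (98.5 CPM per kb). Insig1 led in Ctsd-/- cells, with 98.7 CPM per kb in 1% FCS and 183 CPM per kb in 1% FCS LT.

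The first comparison asked whether loss of Ctsd in the tumor epithelium went with another level of these genes at 18 weeks. None of the 29 genes passed an adjusted p of 0.05 in edgeR's quasi-likelihood test, where 0.00537% of the 18617 genes tested (a single gene) did. At an unadjusted p under 0.1, the threshold the study used in tumors, 8 were higher and 1 was lower, against 8.44% and 8.27% of all genes (16.7% in either direction), and 2 passed an unadjusted p under 0.05, against 8.94% of all genes. All 29 had overlapping genotypes, where 4.15% of all genes tested did not overlap. The fitted log2 FC was above zero for 23 of the 29, and its median was 0.23, against 0.0007 over all genes. DESeq2 and limma-voom also called 0 members.

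Insig1, the sensor protein whose own transcription rises with active SREBP2, had the largest fitted difference of the list in tumors. Its levels were 30.4, 22.97, 23.8 and 56.6 CPM in WT tumors 1 to 4 and 77.2, 47.7, 74.3 and 97.3 CPM in Ctsd-/- tumors 1 to 4, a log2 FC of 1.15 (SE 0.33, unadjusted p = 0.00563, adjusted p = 0.416). Only WT tumor 4 reached into the range of the Ctsd-/- tumors. White adipocyte markers summed to 899.8, 3249, 532.5 and 5685 CPM in the same WT tumors and to 8181, 3396, 10730 and 23480 CPM in the same Ctsd-/- tumors, with the highest sum of each genotype in the tumor with the highest Insig1, and their part in this difference was not tested.

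The LXR gene Nr1h3 had the next largest fitted difference. It had 12.03, 19.7, 14.9 and 34.5 CPM in WT tumors and 32.6, 16.7, 42.9 and 82.05 CPM in Ctsd-/- tumors, a log2 FC of 1.10 (SE 0.47, unadjusted p = 0.0413, adjusted p = 0.555). WT tumor 4 and Ctsd-/- tumor 4 were again the highest of their genotypes, and Ctsd-/- tumors 1 and 2 lay within the WT range. The exporter Abca1 had 33.4, 52.7, 32.7 and 17.8 CPM in WT and 41.8, 40.7, 57.8 and 62.1 CPM in Ctsd-/- tumors, a log2 FC of 0.57 (SE 0.31, unadjusted p = 0.0949, adjusted p = 0.593). WT tumor 4 was the lowest of all 8 for Abca1, and WT tumor 2 reached into the Ctsd-/- range.

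Of the regulators, Srebf2 had 67.6, 53.6, 51.4 and 33.5 CPM in WT and 55.9, 85.7, 77.8 and 64.3 CPM in Ctsd-/- tumors, a log2 FC of 0.46 (SE 0.24, unadjusted p = 0.0851, adjusted p = 0.588). Its escort Scap had 47.2, 52.95, 49.9 and 31.99 CPM in WT and 44.8, 80.1, 60.6 and 66.8 CPM in Ctsd-/- tumors, a log2 FC of 0.47 (SE 0.23, unadjusted p = 0.0709, adjusted p = 0.578). The low values of WT tumor 4 (33.5 CPM for Srebf2 and 32.0 CPM for Scap) set it below all other tumors for both genes. This library was also the lowest of its group for 36.0% of all genes tested, and had the fewest gene counts (49725437) and the most ambiguous reads (15.6%) of the 8. Without it the log2 FC was 0.30 for Srebf2, 0.33 for Scap and 0.35 for Abca1, and for Insig1 it was 1.53. The other LXR gene, Nr1h2, had 84.1, 93.1, 82.7 and 64.02 CPM in WT and 82.5, 126, 106 and 106 CPM in Ctsd-/- tumors, a log2 FC of 0.38 (SE 0.20, unadjusted p = 0.0865, adjusted p = 0.590), and here too WT tumor 4 was the lowest.

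Of the enzymes 2 were higher and 1 was lower in Ctsd-/- tumors at an unadjusted p under 0.1. Lss, which closes the rings of lanosterol, had 40.1, 29.1, 24.4 and 25.8 CPM in WT and 33.1, 42.8, 34.4 and 50.8 CPM in Ctsd-/- tumors, a log2 FC of 0.43 (SE 0.23, unadjusted p = 0.0848, adjusted p = 0.587). Nsdhl, of the enzyme complex that removes methyl groups from the sterol, had 47.04, 37.6, 31.4 and 43.5 CPM in WT and 48.8, 41.2, 57.2 and 60.6 CPM in Ctsd-/- tumors, a log2 FC of 0.38 (SE 0.20, unadjusted p = 0.0875, adjusted p = 0.590). Both pairs of ranges overlapped. Idi1, which interconverts the isoprenoid units, was the single gene of the list with a lower value at this threshold, with 10.4, 11.3, 15.3 and 20.1 CPM in WT and 11.6, 7.86, 9.20 and 11.1 CPM in Ctsd-/- tumors and a log2 FC of −0.52 (SE 0.26, unadjusted p = 0.0756, adjusted p = 0.578). The summed CPM of the 18 enzymes was 956.4, 759.1, 741.6 and 1073 in WT tumors and 961.3, 914.6, 891.1 and 997.9 in Ctsd-/- tumors, so that every Ctsd-/- tumor lay within the WT range.

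The remaining genes passed neither threshold in tumors. Hmgcs1 had 71.3, 56.3, 41.2 and 57.1 CPM in WT and 66.6, 56.8, 74.9 and 70.2 CPM in Ctsd-/- tumors, a log2 FC of 0.25 with a 95% interval from −0.20 to 0.70. Sqle, the squalene epoxidase, had 79.9, 53.1, 51.7 and 60.3 CPM in WT and 73.2, 81.4, 57.6 and 74.1 CPM in Ctsd-/- tumors, a log2 FC of 0.23 with a 95% interval from −0.23 to 0.68. Neither interval excludes zero. Stard4 had 13.5, 15.7, 11.5 and 19.02 CPM in WT and 15.6, 15.1, 7.40 and 18.9 CPM in Ctsd-/- tumors, a log2 FC of −0.067 with a 95% interval from −0.73 to 0.60. Abcg1 had 65.5, 83.9, 63.99 and 43.6 CPM in WT and 66.3, 82.1, 57.5 and 92.5 CPM in Ctsd-/- tumors, a log2 FC of 0.22 with a 95% interval from −0.32 to 0.75, and every Ctsd-/- tumor but tumor 4 lay within the WT range. Mylip had 33.3, 49.99, 54.2 and 37.1 CPM in WT and 41.4, 38.6, 27.9 and 41.9 CPM in Ctsd-/- tumors, a log2 FC of −0.22 with a 95% interval from −0.72 to 0.27. Soat1, which esterifies cholesterol for storage, had 43.6, 36.97, 28.9 and 28.5 CPM in WT and 31.9, 36.9, 28.2 and 26.3 CPM in Ctsd-/- tumors, a log2 FC of −0.16 with a 95% interval from −0.62 to 0.30. The other 13 enzymes and Insig2 had log2 FCs from −0.40 (Ebp and Insig2) to 0.34 (Sc5d) and unadjusted p-values of 0.1055 (Ebp) or more. WT and Ctsd-/- tumors carried different LR numbers in the labels, which do not say what this number marks, so that it and the genotype cannot be told apart.

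In cells the enzymes differed between samples of the same group. WT replicate 2 of 1% FCS LT had the lowest value of its group for 18 of 18 enzymes and for 22 of the 29 genes, whereas it was the lowest for 29.4% of all genes tested. Its enzymes lay a median of 0.71 on the log2 scale below the mean of the other two replicates. WT replicate 1 of 1% FCS was the highest of its group for 17 enzymes and Ctsd-/- replicate 3 of 1% FCS for 16. The summed CPM of the 18 enzymes was 3690, 2746 and 2505 in WT cells and 2646, 2903 and 3165 in Ctsd-/- cells in 1% FCS, and 3580, 2127 and 3381 in WT cells and 3178, 3724 and 4049 in Ctsd-/- cells in 1% FCS LT. In both culture times the summed levels of the genotypes overlapped, and single enzymes are therefore given by sample below.

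**Figure D2:**
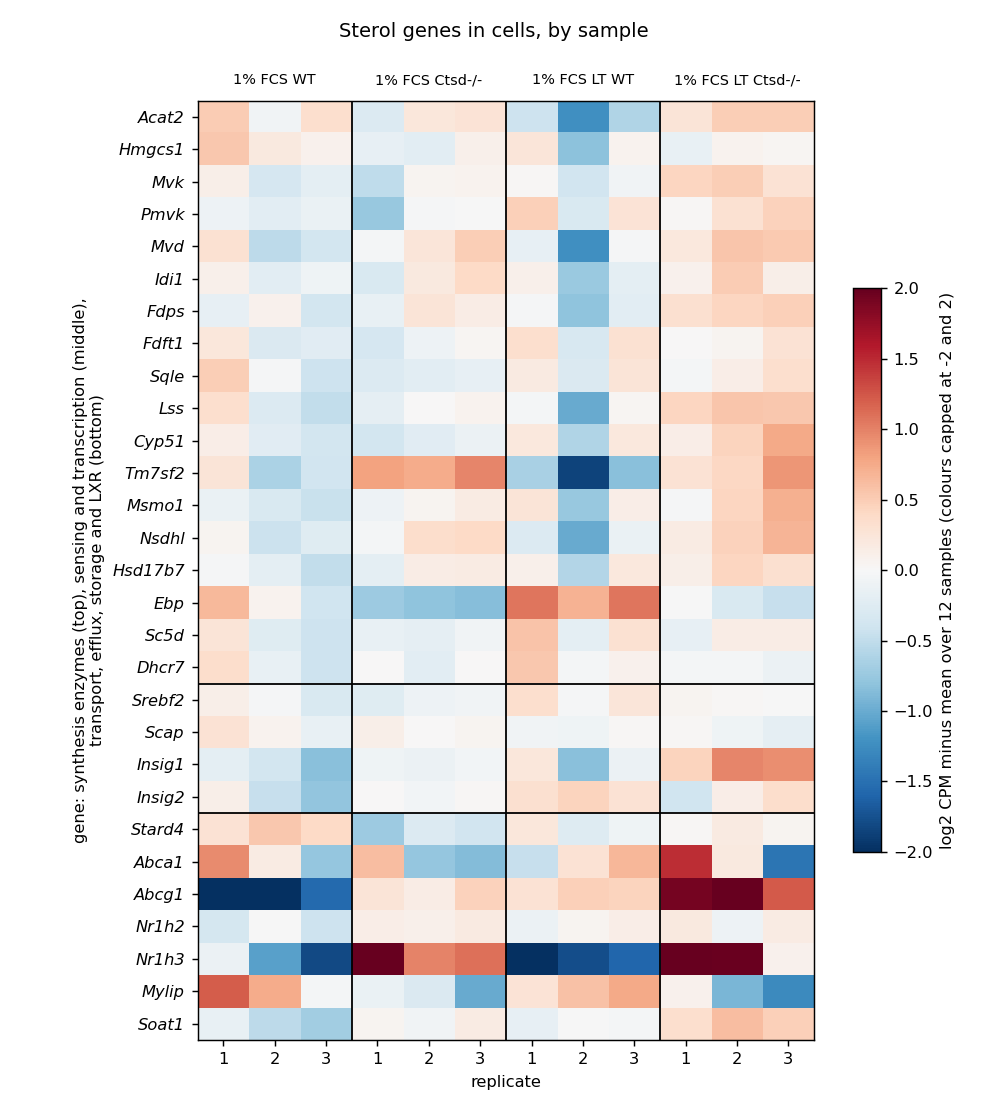
Log2 CPM of the 29 genes in the 12 cell samples, each minus the mean of that gene over the 12 samples (red above, blue below, colours capped at −2 and 2), with replicates numbered under each group. The column of WT replicate 2 of 1% FCS LT is the bluest of its group over the enzymes, and Abcg1 and Nr1h3 have the deepest colours.

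The comparison of genotypes at 10 days in low serum gave changes in both directions. Of the 29 genes, 5 were higher in Ctsd-/- cells (Abcg1, Nr1h2, Nr1h3, Soat1 and Tm7sf2) and 3 were lower (Ebp, Mylip and Stard4) at an adjusted p under 0.05, against 23.5% and 25.1% of the 15178 genes tested in cells (48.5% in either direction). The share of the list (8 of 29) was thus not above the background. Of the 18 enzymes 1 was higher and 1 lower, and the median log2 FC of the 29 genes was 0.024, against 0.0002 over all genes. The direction of the enzymes depended on the samples used. The log2 FC was above zero for 9 of the 18 with all samples, and for 7 without WT replicate 2 or 3. Without WT replicate 1 it was above zero for 13 (median 0.20). Within the 8 cell samples that share a single LR number it was above zero for 16 (median 0.28). The groups did not overlap for 10 of the 29 genes, against 55.2% of all genes.

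At 12 weeks 11 genes were higher in Ctsd-/- cells and 2 were lower, against 20.5% and 19.1% of all genes (39.6% in either direction). Among the enzymes 7 were higher (Acat2, Mvk, Mvd, Fdps, Lss, Tm7sf2 and Nsdhl), 1 was lower (Ebp) and 10 did not pass. The other genes that were higher in Ctsd-/- cells were Insig1, Abcg1, Nr1h3 and Soat1, and the other lower gene was Mylip. The median log2 FC of the list was 0.35, against 0.014 over all genes, and the same 13 genes were those whose groups did not overlap, against 54.2% of all genes. Without WT replicate 2, which was low for every enzyme, 8 genes remained higher and 1 lower, with Mvk, Mvd, Lss and Mylip no longer past the threshold, and the median log2 FC of the enzymes went from 0.47 to 0.23. Leaving out Ctsd-/- replicate 2 also gave 8 higher and 1 lower. The higher enzymes numbered 4 without WT replicate 2 or without Ctsd-/- replicate 2. They numbered 5 without Ctsd-/- replicate 1 or 3, and 7 without WT replicate 1 or 3.

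**Figure D3:**
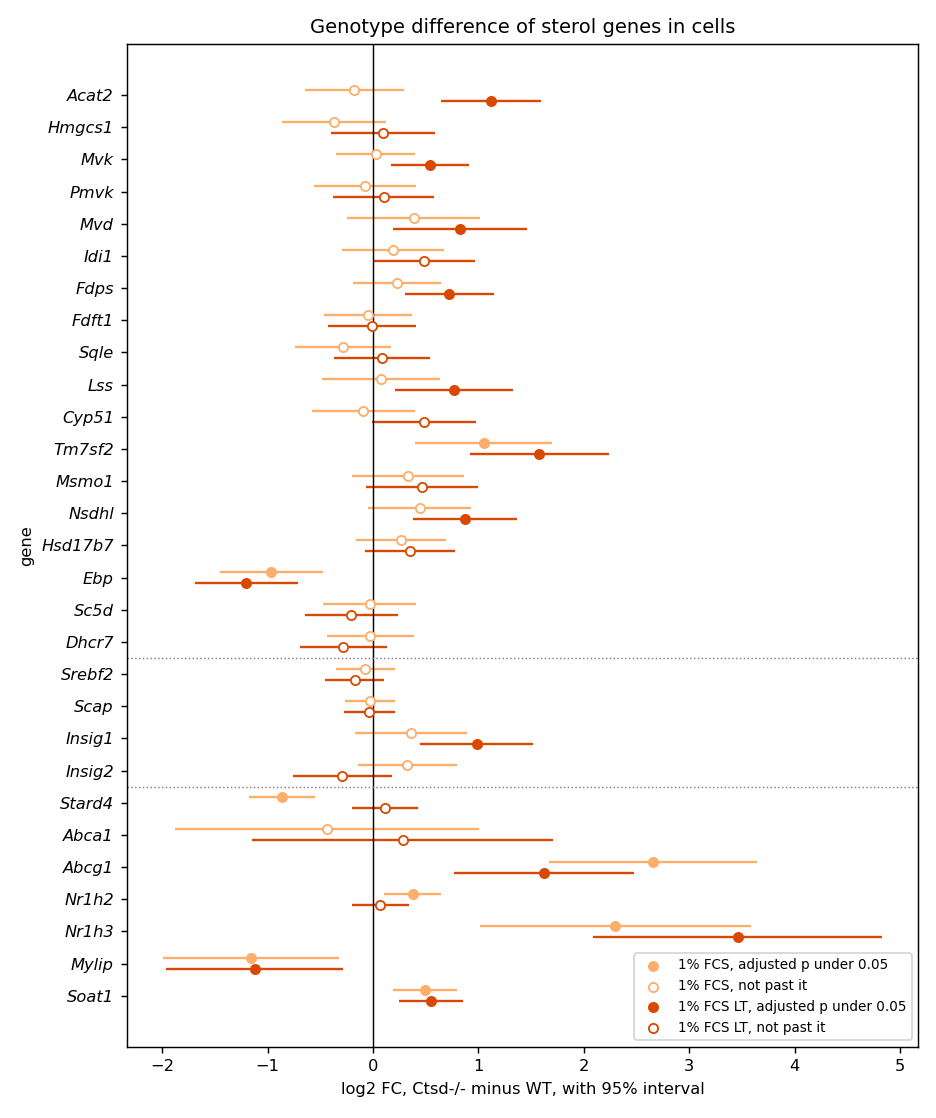
Log2 FC of Ctsd-/- minus WT cells for each gene with its 95% interval, in 1% FCS (light) and 1% FCS LT (dark), filled where the adjusted p was under 0.05. Filled points number 8 in 1% FCS and 13 in 1% FCS LT, and Tm7sf2, Ebp, Abcg1, Nr1h3, Mylip and Soat1 are filled in both on the same side of zero.

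Tm7sf2 and Ebp, which act in the late part of the pathway, moved in opposite directions at both times. Tm7sf2, a sterol reductase of the step after Cyp51 (chromosome 19, 6062821 to 6068373), had 21.6, 11.6 and 13.8 CPM in WT and 31.6, 30.2 and 35.5 CPM in Ctsd-/- cells in 1% FCS, a log2 FC of 1.05 (SE 0.30, adjusted p = 0.0119). The levels at 12 weeks were 11.5, 5.01 and 10.1 CPM in WT and 22.2, 24.1 and 33.2 CPM in Ctsd-/- cells, a log2 FC of 1.58 (SE 0.30, adjusted p = 0.00150). All Ctsd-/- samples lay above all WT samples at each time. The gene shares 12.1% of its exon bases with Vps51 on the same strand, and reads from there are not part of its counts. Ebp, the sterol isomerase that shifts a double bond in the second ring (chromosome X, 8185329 to 8193512), had 91.1, 61.5 and 44.05 CPM in WT and 35.2, 33.3 and 32.3 CPM in Ctsd-/- cells in 1% FCS, a log2 FC of −0.96 (SE 0.22, adjusted p = 0.00385). After 12 weeks there were 122, 94.1 and 123 CPM in WT and 58.2, 47.2 and 42.2 CPM in Ctsd-/- cells, a log2 FC of −1.20 (SE 0.22, adjusted p = 0.00123). Here all Ctsd-/- samples lay below all WT samples at each time. Both calls held in all 21 alternatives at both times.

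Of the enzymes before farnesyl pyrophosphate, Acat2, Mvk and Mvd were higher in Ctsd-/- than in WT cells at 12 weeks. Hmgcs1, Pmvk and Idi1 did not pass. Acat2, the cytosolic thiolase that joins acetyl-CoA units (chromosome 17, 12942890 to 12960747), had 145.5, 97.9 and 129 CPM in WT and 84.8, 120.2 and 124 CPM in Ctsd-/- cells in 1% FCS, a log2 FC of −0.18 (SE 0.21, adjusted p = 0.519). Samples of 1% FCS LT had 77.04, 43.9 and 67.3 CPM in WT and 122, 144 and 144 CPM in Ctsd-/- cells, a log2 FC of 1.12 (SE 0.22, adjusted p = 0.00158). The genotypes overlapped at 10 days and were apart at 12 weeks, where the WT samples were lower than at 10 days. Acat2 has a close paralog, Acat3, and reads that fit both are not counted.

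Mevalonate kinase (Mvk) had 53.3, 40.4 and 50.3 CPM in WT and 71.2, 73.98 and 64.4 CPM in Ctsd-/- cells in 1% FCS LT, a log2 FC of 0.54 (SE 0.17, adjusted p = 0.0251). Mvd, the decarboxylase that yields isopentenyl pyrophosphate, had 57.9, 27.7 and 63.3 CPM in WT and 75.1, 95.4 and 92.9 CPM in Ctsd-/- cells, a log2 FC of 0.82 (SE 0.29, adjusted p = 0.0417). For Mvd the gap between the lowest Ctsd-/- sample and the highest WT sample was smaller than the gap between WT replicate 2 and the other WT samples. Without that replicate the log2 FC was 0.43 for Mvk (adjusted p = 0.102) and 0.53 for Mvd (adjusted p = 0.115). The call was lost in 3 of 21 alternatives for Mvk and in 7 of 21 for Mvd. In 1% FCS both genes had overlapping genotypes, with log2 FCs of 0.024 for Mvk and 0.39 for Mvd.

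Fdps, the farnesyl pyrophosphate synthase, had 20.6, 12.1 and 18.3 CPM in WT and 26.3, 28.5 and 29.4 CPM in Ctsd-/- cells in 1% FCS LT, a log2 FC of 0.72 (SE 0.19, adjusted p = 0.0108). The groups did not overlap, but 26.7% of its exon bases are shared with Gm43738 on the same strand, so that its counts are a part of its reads. In 1% FCS its log2 FC was 0.23 with overlapping genotypes. The call for Fdps at 12 weeks was lost only within the 8 cell samples that share a single LR number (adjusted p = 0.051). Lss had 224, 115 and 238 CPM in WT and 309, 339 and 334 CPM in Ctsd-/- cells in 1% FCS LT, a log2 FC of 0.77 (SE 0.26, adjusted p = 0.0323). WT replicate 2 again lay far below the others, and without it the log2 FC was 0.50 (adjusted p = 0.0878). The call for Lss was lost in 4 of 21 alternatives. Nsdhl had 107, 64.2 and 118 CPM in WT and 144, 177 and 207 CPM in Ctsd-/- cells, a log2 FC of 0.87 (SE 0.22, adjusted p = 0.00899), and 0.65 (adjusted p = 0.0277) without WT replicate 2.

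**Figure D4:**
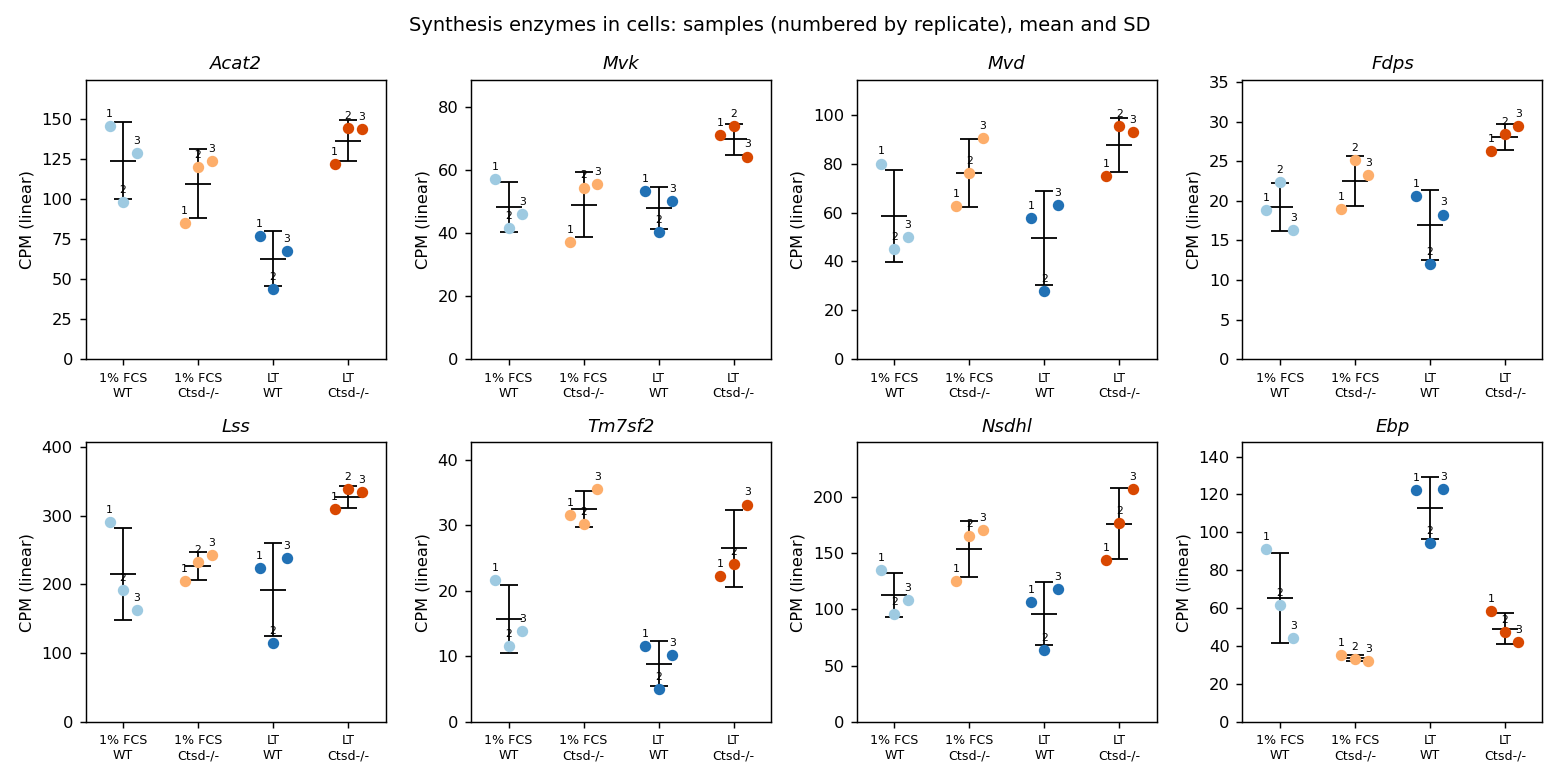
CPM of the 7 enzymes that were higher and the 1 (Ebp) that was lower in Ctsd-/- cells at 12 weeks, by sample (points numbered by replicate) in the 4 cell groups, with the mean and SD as black bars on linear axes from 0. In 1% FCS LT all Ctsd-/- points lie above all WT points in 7 panels and below them for Ebp, and WT replicate 2 is the lowest WT point in every panel.

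Hmgcs1, Sqle and Idi1 did not pass the test between genotypes at either time. Hmgcs1 (chromosome 13, 119690379 to 119708260) had 529, 421 and 387 CPM in WT and 326, 315 and 394 CPM in Ctsd-/- cells in 1% FCS, a log2 FC of −0.37 (SE 0.23, adjusted p = 0.198). In 1% FCS LT its levels were 431, 208 and 383 CPM in WT and 329.8, 386 and 377 CPM in Ctsd-/- cells, a log2 FC of 0.10 (SE 0.23, adjusted p = 0.768) with a 95% interval from −0.40 to 0.59. The WT samples spanned the Ctsd-/- samples at 12 weeks. Sqle had 565, 395 and 301 CPM in WT and 332, 346 and 357 CPM in Ctsd-/- cells in 1% FCS, a log2 FC of −0.28 (SE 0.21, adjusted p = 0.282). At 12 weeks it had 452, 329 and 478 CPM in WT and 388, 439 and 507 CPM in Ctsd-/- cells, a log2 FC of 0.083 (SE 0.21, adjusted p = 0.782) with a 95% interval from −0.37 to 0.54. Idi1 had 41.8, 33.7 and 36.6 CPM in WT and 31.6, 44.7 and 51.3 CPM in Ctsd-/- cells in 1% FCS, a log2 FC of 0.19 (SE 0.22, adjusted p = 0.514). The levels at 12 weeks were 41.7, 23.4 and 34.1 CPM in WT and 41.2, 55.4 and 42.3 CPM in Ctsd-/- cells, a log2 FC of 0.49 (SE 0.22, adjusted p = 0.103), and the highest WT sample lay just above the lowest Ctsd-/- sample.

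The remaining 7 enzymes did not pass at either time. Pmvk, the kinase after Mvk, and Fdft1, which makes squalene, had log2 FCs of 0.10 and −0.012 at 12 weeks. Cyp51, the lanosterol demethylase, had 508, 288 and 508.5 CPM in WT and 478.5, 599.7 and 744 CPM in Ctsd-/- cells in 1% FCS LT, a log2 FC of 0.48 (SE 0.23, adjusted p = 0.112). Msmo1 and Hsd17b7, which work with Nsdhl, had log2 FCs of 0.46 and 0.35 at 12 weeks, and the last enzymes Sc5d and Dhcr7 had values of −0.20 and −0.28. At 10 days these 7 had log2 FCs from −0.091 (Cyp51) to 0.33 (Msmo1). Replicate 1 of 1% FCS and replicate 3 of 1% FCS LT carried LR numbers of their own, each the same in both genotypes, and the other 8 samples shared a single LR number, whose meaning the labels do not give. Within these 8 samples 6 enzymes were higher and 1 lower at 12 weeks, and 2 were higher and 1 lower at 10 days.

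In the sensing group Insig1 was higher in Ctsd-/- cells at 12 weeks, and Srebf2, Scap and Insig2 did not pass at either time. Insig1 (chromosome 5, 28071363 to 28078662) had 283, 250.2 and 181 CPM in WT and 305, 299 and 312 CPM in Ctsd-/- cells in 1% FCS, a log2 FC of 0.36 (SE 0.24, adjusted p = 0.246). After 12 weeks there were 379, 181 and 299 CPM in WT and 442, 637.5 and 618 CPM in Ctsd-/- cells, a log2 FC of 0.98 (SE 0.25, adjusted p = 0.00776). Every Ctsd-/- sample lay above every WT sample at both times. Without WT replicate 2 the log2 FC at 12 weeks was 0.74 (adjusted p = 0.0217), and within the 8 samples of a single LR number it was 0.95 and did not pass (adjusted p = 0.0563).

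Srebf2 itself had 642.5, 583 and 483 CPM in WT and 504, 552 and 567.5 CPM in Ctsd-/- cells in 1% FCS, a log2 FC of −0.073 (SE 0.13, adjusted p = 0.661). Samples of 1% FCS LT had 749.5, 585 and 701 CPM in WT and 614.5, 603 and 590.0 CPM in Ctsd-/- cells, a log2 FC of −0.17 (SE 0.13, adjusted p = 0.316) with a 95% interval from −0.45 to 0.11. The Ctsd-/- samples at 12 weeks fell between WT replicate 2 and the other WT samples. Scap had log2 FCs of −0.026 and −0.033 at the 2 times, with 95% intervals from −0.26 to 0.21 and from −0.27 to 0.20. Insig2, the second Insig protein, had 86.8, 58.3 and 46.4 CPM in WT and 80.6, 77.5 and 81.8 CPM in Ctsd-/- cells in 1% FCS, a log2 FC of 0.33 (SE 0.22, adjusted p = 0.234). In 1% FCS LT its levels were 100.3, 109 and 98.1 CPM in WT and 61.0, 87.5 and 103 CPM in Ctsd-/- cells, a log2 FC of −0.29 (SE 0.21, adjusted p = 0.309), with overlapping genotypes at each time.

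The LXR and export genes held the largest fold differences of the list in cells, at low counts. Nr1h3 (LXR alpha, chromosome 2, 91184061 to 91202834) had 0.420, 0.214 and 0.131 CPM in WT and 1.87, 0.904 and 0.976 CPM in Ctsd-/- cells in 1% FCS, a log2 FC of 2.30 (SE 0.59, adjusted p = 0.00685). At 12 weeks it had 0.108, 0.133 and 0.152 CPM in WT and 2.15, 1.80 and 0.484 CPM in Ctsd-/- cells, a log2 FC of 3.46 (SE 0.63, adjusted p = 0.00105). All Ctsd-/- samples lay above all WT samples at both times. These values rest on 5 to 14 counts per WT sample and 33 to 77 per Ctsd-/- sample in 1% FCS, and on 4 to 6 and 20 to 90 in 1% FCS LT, so that the size of the fold change is imprecise (95% interval of the log2 FC at 12 weeks from 2.09 to 4.83). The other LXR gene, Nr1h2 (LXR beta), had 58.1, 73.7 and 55.6 CPM in WT and 80.5, 79.2 and 83.8 CPM in Ctsd-/- cells in 1% FCS, a log2 FC of 0.38 (SE 0.12, adjusted p = 0.0249). The call for Nr1h2 was lost in 5 of 21 alternatives, among them those without WT replicate 1 or 3 or Ctsd-/- replicate 3 of 1% FCS. At 12 weeks the log2 FC of Nr1h2 was 0.067, with overlapping genotypes.

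Abcg1, which exports cholesterol to lipoproteins (chromosome 17, 31057675 to 31117988), had 0.180, 0.183 and 0.550 CPM in WT and 1.92, 1.78 and 2.22 CPM in Ctsd-/- cells in 1% FCS, a log2 FC of 2.66 (SE 0.45, adjusted p = 0.000510). The levels at 12 weeks were 1.97, 2.24 and 2.18 CPM in WT and 6.08, 9.86 and 3.77 CPM in Ctsd-/- cells, a log2 FC of 1.62 (SE 0.39, adjusted p = 0.00627). The genotypes were apart at both times, and WT cells at 12 weeks had reached the level of Ctsd-/- cells at 10 days. The WT values in 1% FCS rest on 6 to 21 counts per sample. The other exporter, Abca1, did not pass the test. It had 20.7, 11.97 and 6.28 CPM in WT and 16.5, 6.27 and 5.85 CPM in Ctsd-/- cells in 1% FCS, a log2 FC of −0.44 (SE 0.66, adjusted p = 0.607). After 12 weeks there were 7.73, 13.1 and 16.9 CPM in WT and 29.7, 12.2 and 3.87 CPM in Ctsd-/- cells, a log2 FC of 0.28 (SE 0.66, adjusted p = 0.765). All 4 groups overlapped, and the widest, Ctsd-/- cells in 1% FCS LT, held both the highest and the lowest of the 12 samples. The macrophage markers C1qa, C1qb and Fcgr1 had 3 counts or fewer in all 4 cell groups, and the sum of the 8 macrophage markers was 6.96 to 14.2 CPM in WT and 11.4 to 27.3 CPM in Ctsd-/- cells at 10 days, and 54.9 to 63.7 CPM in WT and 9.03 to 25.2 CPM in Ctsd-/- cells at 12 weeks. Of the 2 markers that passed the filter, Cd68 was higher in Ctsd-/- cells at both times, as Nr1h3 and Abcg1 were, and Csf1r was lower at 12 weeks. The part of these markers in the result was not tested.

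Of the uptake and storage genes, Mylip was lower and Soat1 higher in Ctsd-/- cells. Mylip had 25.9, 18.7 and 10.9 CPM in WT and 10.2, 9.12 and 5.53 CPM in Ctsd-/- cells in 1% FCS, a log2 FC of −1.16 (SE 0.38, adjusted p = 0.0257). Samples of 1% FCS LT had 13.4, 16.7 and 18.8 CPM in WT and 11.9, 5.92 and 4.62 CPM in Ctsd-/- cells, a log2 FC of −1.12 (SE 0.38, adjusted p = 0.0353). The genotypes were apart at each time by less than 2 CPM, and the call was lost in 5 of 21 alternatives at each time. Soat1 had 53.1, 40.8 and 36.2 CPM in WT and 61.4, 55.9 and 66.1 CPM in Ctsd-/- cells in 1% FCS, a log2 FC of 0.50 (SE 0.14, adjusted p = 0.0113). In 1% FCS LT its levels were 52.6, 58.2 and 57.3 CPM in WT and 73.9, 90.4 and 82.2 CPM in Ctsd-/- cells, a log2 FC of 0.55 (SE 0.14, adjusted p = 0.00776). Every Ctsd-/- sample was above every WT sample at both times, and the call held in all 21 alternatives at both times.

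Stard4, itself a sterol-regulated gene, was lower in Ctsd-/- cells at 10 days and not at 12 weeks. It had 162, 192 and 174 CPM in WT and 80.1, 109 and 102 CPM in Ctsd-/- cells in 1% FCS, a log2 FC of −0.86 (SE 0.14, adjusted p = 0.000450). At 12 weeks it had 154, 110.1 and 124 CPM in WT and 134, 149 and 138 CPM in Ctsd-/- cells, a log2 FC of 0.12 (SE 0.14, adjusted p = 0.548). The genotypes were apart at 10 days and overlapped at 12 weeks. Epithelial and fibroblast markers differed between the genotypes at 10 days as given above, and their part in the differences of that time was not tested.

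**Figure D5:**
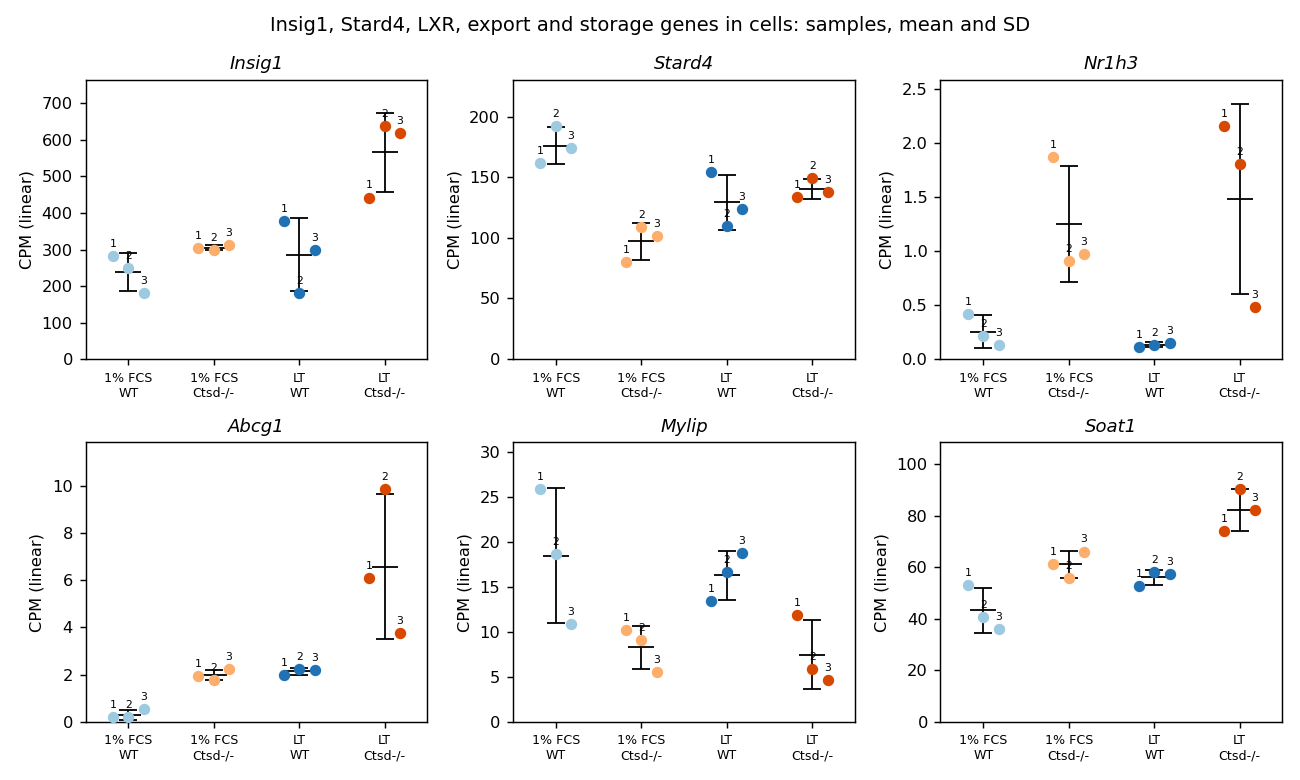
CPM of Insig1, Stard4, Nr1h3, Abcg1, Mylip and Soat1 by sample (points numbered by replicate) in the 4 cell groups, with the mean and SD as black bars on linear axes from 0. Stard4 falls below its WT points in Ctsd-/- cells of 1% FCS and overlaps them in 1% FCS LT, and Nr1h3 lies between 0.108 and 0.420 CPM in the 6 WT samples and between 0.484 and 2.15 CPM in the 6 Ctsd-/- samples.

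The test of whether the genotype difference itself changed between 10 days and 12 weeks called Acat2 and Stard4, both with a higher difference at 12 weeks (2 of 29 genes, against 16.1% of all genes in this direction and 30.3% in either). The difference of the log2 FCs was 1.3 for Acat2 (SE 0.30, adjusted p = 0.00729) and 0.98 for Stard4 (SE 0.20, adjusted p = 0.00364). Within the 8 samples of a single LR number it was 1.03 for Acat2 (adjusted p = 0.0623) and 0.90 for Stard4 (adjusted p = 0.0213). For the other 5 enzymes that were called at 12 weeks only (Mvk, Mvd, Fdps, Lss and Nsdhl), for Insig1, also called at 12 weeks only, and for Nr1h2, called at 10 days only, a change of the genotype difference with time was not detected, with values from −0.31 (Nr1h2) to 0.69 (Lss). This test uses the WT samples in 1% FCS, and in it 7 of 7 epithelial markers were called lower (median −2.84) and 3 of the 4 fibroblast markers tested were called higher, and their part in the change was not tested. Over the list 21 of 29 values were above zero, with a median of 0.30 against −0.0035 over all genes. Without WT replicate 2 of 1% FCS LT, the median over the enzymes was 0.18 in place of 0.40. It was 0.185 without WT replicate 1 of 1% FCS and 0.12 within the 8 samples of a single LR number. Without WT replicate 3 of 1% FCS LT it was 0.51.

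Time in low serum was then compared within each genotype. In Ctsd-/- cells 1 of the 29 genes (Abcg1) was higher at 12 weeks and 0 were lower, where 1.57% and 0.81% of all genes passed (2.38% in either direction), and 8 genes had an unadjusted p under 0.05, where 18% of all genes did. The fitted log2 FC was above zero for 24 of 29 genes, with a median of 0.25 against −0.0014 over all genes. For 12 genes all samples at 12 weeks lay above all samples at 10 days and for 0 below, against 13.5% and 11.9% of all genes. These were Mvk, Pmvk, Fdps, Sqle, Lss, Cyp51, Ebp, Srebf2, Insig1, Stard4, Abcg1 and Soat1. The genes share their samples, and Ctsd-/- replicate 1 of 1% FCS was the lowest of its group for 13 of 18 enzymes, so that the 12 are not separate evidence.

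Single values in this comparison were a log2 FC of 1.73 (SE 0.39, adjusted p = 0.0447) for Abcg1, a log2 FC of 0.89 (SE 0.25, adjusted p = 0.0838) for Insig1 and a log2 FC of 0.53 (SE 0.14, adjusted p = 0.0764) for Stard4. The call for Abcg1 was lost in 9 of 20 alternatives, among them the replicate number as a block. DESeq2 called Cyp51, Insig1 and Stard4 besides Abcg1. Cyp51 had 341, 375 and 404 CPM at 10 days and 478.5, 599.7 and 744 CPM at 12 weeks in Ctsd-/- cells, a log2 FC of 0.70 (SE 0.23, adjusted p = 0.129) in edgeR. The other 8 genes followed in every comparison did not pass, with log2 FCs from −0.15 (Mylip) to 0.67 (Abca1). Within the single LR number the median log2 FC of the 18 enzymes was 0.13, against 0.285 with all samples.

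In WT cells 4 genes were higher at 12 weeks (Abcg1, Ebp, Insig2 and Soat1) and 3 were lower (Acat2, Stard4 and Tm7sf2), against 23% and 23.4% of all genes (46.4% in either direction). The median log2 FC of the list was −0.001, against 0.0045 over all genes. Abcg1 showed a log2 FC of 2.77 (SE 0.45, adjusted p = 0.000415) and Ebp a log2 FC of 0.79 (SE 0.22, adjusted p = 0.0120). Acat2 showed a log2 FC of −0.98 (SE 0.22, adjusted p = 0.00295). These 3 calls held in every alternative that tested the gene (the filter of at least 10 counts in every sample removed Abcg1). Insig2 showed a log2 FC of 0.68 (SE 0.22, adjusted p = 0.0216), Stard4 a log2 FC of −0.45 (SE 0.14, adjusted p = 0.0234) and Tm7sf2 a log2 FC of −0.82 (SE 0.30, adjusted p = 0.0410), and these calls were lost in 3, 3 and 9 of 21 alternatives, among them for all of them that without WT replicate 2 of 1% FCS LT. Soat1 showed a log2 FC of 0.37 (SE 0.14, adjusted p = 0.0453), with overlapping times, and lost the call in 14 of 21 alternatives. Hmgcs1, Sqle, Idi1, Insig1, Srebf2, Abca1, Nr1h3 and Mylip did not pass, with log2 FCs from −0.92 (Nr1h3) to 0.27 (Insig1). The WT samples in 1% FCS carried the fibroblast markers and the low epithelial markers given above, and the part of these markers in the WT time comparison was not tested.

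Other genes of the pathway were taken from lists of general knowledge. Of 12 genes of the machinery that cuts SREBP or degrades sterol-sensing proteins, 3 rose and 2 fell in Ctsd-/- cells at 10 days, and 1 rose and 2 fell at 12 weeks. Vcp, the ATPase that extracts proteins from the endoplasmic reticulum, had log2 FCs of −0.60 and −0.81, and both passed.

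Of 14 genes of sterol transport inside the cell, 2 rose and 6 fell in Ctsd-/- cells at 10 days, and 6 rose and 3 fell at 12 weeks. Lipa, the lysosomal acid lipase that frees cholesterol from its esters, had 79.2, 68.6 and 50.5 CPM in WT and 35.4, 25.9 and 30.3 CPM in Ctsd-/- cells in 1% FCS, a log2 FC of −1.11 (SE 0.17, adjusted p = 0.000200). After 12 weeks there were 24.4, 21.2 and 25.9 CPM in WT and 35.6, 39.2 and 35.2 CPM in Ctsd-/- cells, a log2 FC of 0.62 (SE 0.17, adjusted p = 0.0109). The order of the genotypes was thus opposite at the 2 times, and the difference of the log2 FCs was 1.73 (adjusted p = 0.000227). Gramd1b, which moves cholesterol from the plasma membrane to the endoplasmic reticulum, had 14.7, 10.96 and 10.1 CPM in WT and 6.18, 3.97 and 4.34 CPM in Ctsd-/- cells in 1% FCS, a log2 FC of −1.3 (SE 0.45, adjusted p = 0.0319). Samples of 1% FCS LT had 0.189, 0.586 and 1.57 CPM in WT and 10.7, 10.4 and 8.66 CPM in Ctsd-/- cells, a log2 FC of 3.65 (SE 0.51, adjusted p = 0.000180), and the difference was 4.95 (adjusted p = 0.000253). Both genes were lower in WT cells at 12 weeks than at 10 days, and both differences rest on the WT samples in 1% FCS, which had the high fibroblast and low epithelial markers given above, whose part was not tested.

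Of 10 genes of the isoprenoid branches, 3 were higher and 1 was lower in Ctsd-/- cells at 10 days. At 12 weeks 3 were higher and 0 lower. Rabggtb, a subunit of the Rab prenyltransferase, had log2 FCs of 0.75 at 10 days and 0.69 at 12 weeks. Of 9 tested genes among 10 LXR partners, LXR targets and oxysterol enzymes, 1 was higher and 2 were lower in Ctsd-/- cells at 10 days. At 12 weeks 2 were higher and 1 was lower. Cyp27a1, which makes an oxysterol in mitochondria, had 0.135, 0.0799 and 0.0254 CPM in WT and 0.527, 0.283 and 0.339 CPM in Ctsd-/- cells in 1% FCS LT, a log2 FC of 2.23 (SE 0.49, adjusted p = 0.00375). In the same WT samples Nr1h3 at 0.108 to 0.152 CPM rested on 4 to 6 counts. The counts of Cyp27a1 are thus low and the size of its fold change is imprecise. These shares can be read against 48.5% of all genes at 10 days and 39.6% at 12 weeks. In tumors 0 genes of these 4 lists passed, and in Ctsd-/- cells 0 passed between the times.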

How the data were processed

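RNA sequencing of 8 tumors and 12 cell samples was analysed. The authors trimmed reads with Trimmomatic, aligned them to GRCm38/mm10 with STAR and deposited raw read counts per Ensembl gene without normalization, 1 file per sample. Reads with several positions or on several genes are not counted, so genes with paralogs or overlapping genes lose reads. Ambiguous reads made up 7.11% to 15.6% in tumors and 1.11% to 1.25% in cells. Counts regardless of strand were used in tumors, where 52.8% to 53.7% of stranded counts lay on the opposite strand, and opposite-strand counts in cells (97.1% to 97.3%). GENCODE M21 gave symbols for 45143 of 45706 identifiers.

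Counts were filtered with filterByExpr, scaled with TMM and tested in edgeR 4.0.16 (R 4.3.3) with the two-sided quasi-likelihood test, tumors and cells apart and all 12 cell samples together, with Benjamini-Hochberg adjustment over the 18617 and 15178 genes tested. Adjusted p-values are edgeR's. CPM are TMM-scaled. No pair of replicates was alike enough to be the same library. Alternatives were DESeq2 1.42.0, limma-voom (limma 3.58.1), DESeq2 size factors, 2 other filters, the replicate number as a block, each sample left out in turn, counts regardless of strand in cells, the 8 cell samples of a single LR number (undefined in the labels), only the 2 groups compared, and the study's tumor threshold.

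The 29 genes and all lists were chosen with earlier results of these data known. By rule, Ctsd came first, 11 genes were given by sample in each comparison, together with up to 5 further genes past the threshold, ranked by the size of their log2 FC. From each other list up to 3 such genes were eligible, and not all of these are printed. Further sample values (Mvk, Fdps, Lss and Cyp51 in cells) and Vcp, Lipa and Cyp27a1 were chosen for the text after their values were seen.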

Additional observations from a re-analysis of the deposited data

Results flagged for a closer look

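A single tumor stood away from the others of its genotype for 3 enzymes, by Dixon's criterion. Mvk had 28.7 CPM in Ctsd-/- tumor 3, against 23.7, 23.8 and 24.2 CPM in the others. Hsd17b7 had 14.2 CPM in WT tumor 1, against 7.90, 8.29 and 8.94 CPM. Ebp had 222 CPM in WT tumor 4, against 129, 129 and 143 CPM, and this tumor was also the lowest of all 8 for Srebf2, Scap, Nr1h2 and Abca1. In all 58 such sets of 4 tumors were examined, and chance flags about 1 in 20.

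The genotype difference changed with time in low serum for Acat2, by 1.3 on the log2 scale from 10 days to 12 weeks, and for Stard4, by 0.978. Acat2 fell with time in WT cells, with a log2 FC of −0.98, and its change in Ctsd-/- cells was 0.32 and did not pass the test. Stard4 was −0.45 in WT cells and 0.53 in Ctsd-/- cells, of which the first passed.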

How the results depend on the processing

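No member's called direction reversed in any alternative. Over genes and alternatives, calls were kept in 573 instances and lost in 70, and 22 instances gained a call. Tumors had 8 genes higher and 1 lower at an unadjusted p under 0.1, against 0 and 0 at an adjusted p under 0.05. At 10 days the filter of at least 10 counts in every sample removed Abcg1 and Nr1h3 and left 3 genes higher. At 12 weeks 1 gene was lower within a single LR number. Between the times in Ctsd-/- cells DESeq2 called 4 genes higher, no filter 3, the stricter filter 0, the replicate block 0 and the 2 groups alone 4, against 1. For the change of the genotype difference with time, 1 gene was higher and 1 lower (Insig2) within a single LR number, against 2 and 0.

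With each sample left out in turn, the genes higher and lower ranged from 0 to 0 and 0 to 0 in tumors, from 4 to 5 and 2 to 4 at 10 days, from 8 to 11 and 1 to 2 at 12 weeks, from 0 to 1 and 0 to 0 between the times in Ctsd-/- cells, from 2 to 6 and 1 to 3 in WT cells, and from 2 to 2 and 0 to 1 for the change of the genotype difference. The count of 1 lower at 12 weeks came without WT replicate 2 or 3 or Ctsd-/- replicate 2 or 3 of 1% FCS LT. In WT cells the 2 higher came without replicate 3 of 1% FCS, and the 1 lower without replicate 2 or 3 of 1% FCS LT. For the change of the genotype difference, the 1 lower came without WT replicate 1 (Insig2) or 3 (Abcg1) of 1% FCS. The Abcg1 call between the times in Ctsd-/- cells was lost without any replicate of Ctsd-/- cells in 1% FCS, without replicate 1 or 2 of Ctsd-/- cells in 1% FCS LT, and without WT replicates of 1% FCS LT, which enter only through the shared spread. The cause was not tested for the other changes.

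Samples with the same replicate number deviated together by correlations from −0.303 to 0.362, so the numbers were taken as names. Between the genotypes at 10 days they were 0.362, 0.09997 (just under the limit of 0.1) and 0.299, and Ctsd-/- replicate 2 was closer to WT replicate 3 than to its own number. With the replicate block 0 genes were called between the times in Ctsd-/- cells, against 1 (Abcg1), and the other counts stayed within 1.5 times. Low counts limit Nr1h3, Abcg1 and Cyp27a1 in cells.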
